A study of Mus musculus with 6 samples.

Results

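The genes described are 9 members of sex steroid signalling and its readout in mouse: the nuclear receptors Esr1, Esr2 and Pgr, the membrane receptor Gper1, the coactivators Ncoa1, Ncoa2 and Ncoa3, and the target genes Greb1 and Fkbp5. They were chosen by name, as receptors, coactivators and targets, and every array probe whose accession belonged to one of them was read on its own. This gave 21 probes of 56605 on the array, for 9 of 23462 named genes. The cells were TM3, an immortal line derived from Leydig cells of the mouse testis and labelled as male testicular somatic cells. PNP cells were given 10 µM 4-nitrophenol, a nitrated phenol that is a breakdown product of parathion and a component of diesel exhaust, for 24 h, and control cells 0 µM. There were 3 samples in each group, each on its own 1-colour Agilent array, and nothing in the labels says that they came from separate cultures, so that p-values measure only the spread between these samples. The line is a single one, so that nothing here speaks for other Leydig cells.

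Estrogen receptor alpha (Esr1) and beta (Esr2) and the progesterone receptor (Pgr) are transcription factors that bind their steroid, dimerise on DNA and recruit p160 coactivators, which bring in histone acetyltransferases. Gper1 is a G protein-coupled receptor that binds estradiol at membranes and signals without direct contact with DNA. In Leydig cells, estrogen signalling is known to restrain androgen production, and the aromatase Cyp19a1 makes the estrogen. Greb1 is known from human breast cancer cells as a gene strongly induced by estradiol, and Fkbp5, a co-chaperone of HSP90 that lowers the hormone affinity of the glucocorticoid receptor, is a classical target of androgen, progesterone and glucocorticoid.

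The sequences just around the start sites of the target genes are shown to let a reader see which receptor motifs they hold; known hormone-responsive enhancers of such genes often lie outside such windows. RefSeq windows of build GRCm38.p6, from 250 bases before to 50 bases after each start, held 9 windows for 7 of the 9 members; Ncoa2 and Ncoa3 are named only. Both windows of Greb1 and the window of Fkbp5, all on the minus strand and read 5′ to 3′, are printed with GGTCA, 1 arm of the estrogen response element, or its reverse complement TGACC, in capitals.
Greb1, chr12:16757190-16757489: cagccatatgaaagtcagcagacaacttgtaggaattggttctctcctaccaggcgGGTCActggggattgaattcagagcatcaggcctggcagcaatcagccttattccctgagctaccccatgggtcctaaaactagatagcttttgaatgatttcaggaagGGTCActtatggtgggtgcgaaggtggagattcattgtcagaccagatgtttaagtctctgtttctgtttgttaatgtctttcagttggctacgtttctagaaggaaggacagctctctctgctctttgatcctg
Greb1, chr12:16800837-16801136: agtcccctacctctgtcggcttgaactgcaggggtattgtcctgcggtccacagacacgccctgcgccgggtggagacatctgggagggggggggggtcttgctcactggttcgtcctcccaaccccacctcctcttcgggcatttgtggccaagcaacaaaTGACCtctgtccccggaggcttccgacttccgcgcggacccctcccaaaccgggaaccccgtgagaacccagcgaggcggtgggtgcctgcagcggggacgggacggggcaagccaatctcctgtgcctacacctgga
Fkbp5, chr17:28486100-28486399: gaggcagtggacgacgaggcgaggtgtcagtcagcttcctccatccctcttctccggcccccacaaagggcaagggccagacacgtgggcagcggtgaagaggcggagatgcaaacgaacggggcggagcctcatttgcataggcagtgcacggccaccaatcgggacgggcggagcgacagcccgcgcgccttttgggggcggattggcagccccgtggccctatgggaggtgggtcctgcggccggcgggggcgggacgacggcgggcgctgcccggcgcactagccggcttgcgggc
The first Greb1 window held 2 such arms, which started 194 and 85 bases before the start site, and the second held 1, which started 88 bases before it. Esr2 held 2 and Esr1 held 1 in 1 of its 2 windows, while Fkbp5, Gper1, Ncoa1 and Pgr held none. An arm on either strand was present in 40.5% of 32851 promoters of the same length, so its presence in a window is common. The full palindrome, GGTCA followed after 3 bases of any kind by TGACC, was in none of the 9 windows and in 0.07% of all promoters. The palindrome of the progesterone and glucocorticoid receptors, AGAACA followed after 3 bases by TGTTCT, was likewise in none, against 0.00913% of all. Its single arm TGTTCT, read on both strands and present in 19.0% of all promoters, was found in Ncoa1 and in no other window. Each palindrome contains its arm. The GC box GGGCGG of the general activator Sp1 was in 35.7% of promoters. It had 4 copies in Fkbp5, 7 in Ncoa1 and 1 each in Gper1 and Pgr. The windows of Fkbp5 and Ncoa1 were 70.7% and 84.7% G and C, against a median of 52.7% over all promoters. A TATAAA box, in 13.6% of promoters on either strand and at any place in the window, started 29 bases before the start site of Gper1. Pgr held 1 on the opposite strand, which started 212 bases before its start site. No match is a shown site of binding, and the absence of one says only that these letters are not in these windows.

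Each value below is a log2 processed signal minus the 75th percentile of that array, called the scaled log2 signal, so that 0 lies at that percentile; it compares arrays within a probe and does not rank probes or genes. Over the arrays, the share of spots well above background was 61.6% ± 1.47 in PNP samples and 62.1% ± 0.240 in control samples (SD, n = 3 each). The 75th percentile of the processed signal, by which each array was scaled, was 4940 ± 400 in PNP samples and 5570 ± 218 in control samples (SD, n = 3 each), without overlap (exact two-sided permutation p = 0.1). Spots marked by the scanner software as outliers made up 12.3% ± 0.814 of spots in PNP samples and 7.75% ± 1.27 in control samples, with no overlap, and an exact two-sided permutation test gave p = 0.1, the smallest that 3 against 3 allows. A marked spot was left out of the test, and it is named as marked where its value is given. Of the Leydig markers, Star and Nr5a1 were above background on all 6 arrays and Cyp17a1 on some, while Cyp11a1 and Lhcgr were above it on none, Hsd3b1 was too dim to test and Insl3 had no named probe. Markers of other testicular cells were also read: none of the tested ones, 4 of 7 Sertoli, 5 of 5 peritubular myoid, 3 of 5 macrophage and 2 of 6 germ cell genes, was called. Of these lists, Amh, Fshr, Adgre1, Ptprc and Prm1 were above background on no array. Above it on all 6 arrays were Sox9, Wt1, Inha, Clu and Gata4 of the Sertoli list, Cd68, Csf1r and Lyz2 of the macrophage list, Ddx4, Sycp3 and Prm2 of the germ cell list and all 5 of the myoid list. The samples were of a single line, and whether any held cells of these other types was not tested. In bulk RNA, fewer cells of a type and less RNA per cell cannot be told apart.

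At least 1 probe named for each of Esr1, Esr2, Gper1, Greb1, Ncoa1, Ncoa2, Ncoa3 and Fkbp5 was above background on all 6 arrays, and none for Pgr. For Esr1, Esr2 and Ncoa2, another probe of the same transcript record was above it on no array. Detection therefore holds for probes, and whether the brighter probe reads the named transcript was not tested. Of the 21 probes, 15 were above background on all 6 arrays and 6 on none, with no probe in between. In no probe did PNP cells differ from control cells past the threshold. The test covered 12 of the 21 probes, those of Esr1, Esr2, Gper1, Ncoa3, Greb1 and Fkbp5, since 6 were not above background and 3 more, 1 each of Esr1, Ncoa1 and Ncoa2, had too few unmarked spots. The limma test called 0 of the 12 at an adjusted p under 0.05, with adjusted p-values between 0.718 and 0.965, and none had an unadjusted p under 0.05. Over all 27221 tested probes it called 0, or 0%, and 1904, or 6.99%, had an unadjusted p under 0.05. The groups overlapped in all 12, while over all probes 10.5% had every PNP value above and 3.52% every PNP value below the control values. The difference, PNP minus control, was positive for 9 and negative for 3 of the 12, with a median of 0.07, against 0.05 over all tested probes, of which 63.4% were positive. With arrays scaled on their median the split was 7 positive and 5 negative, and 47.0% of all tested probes were positive, so that a count of signs depends on the scaling.

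**Figure D1:**
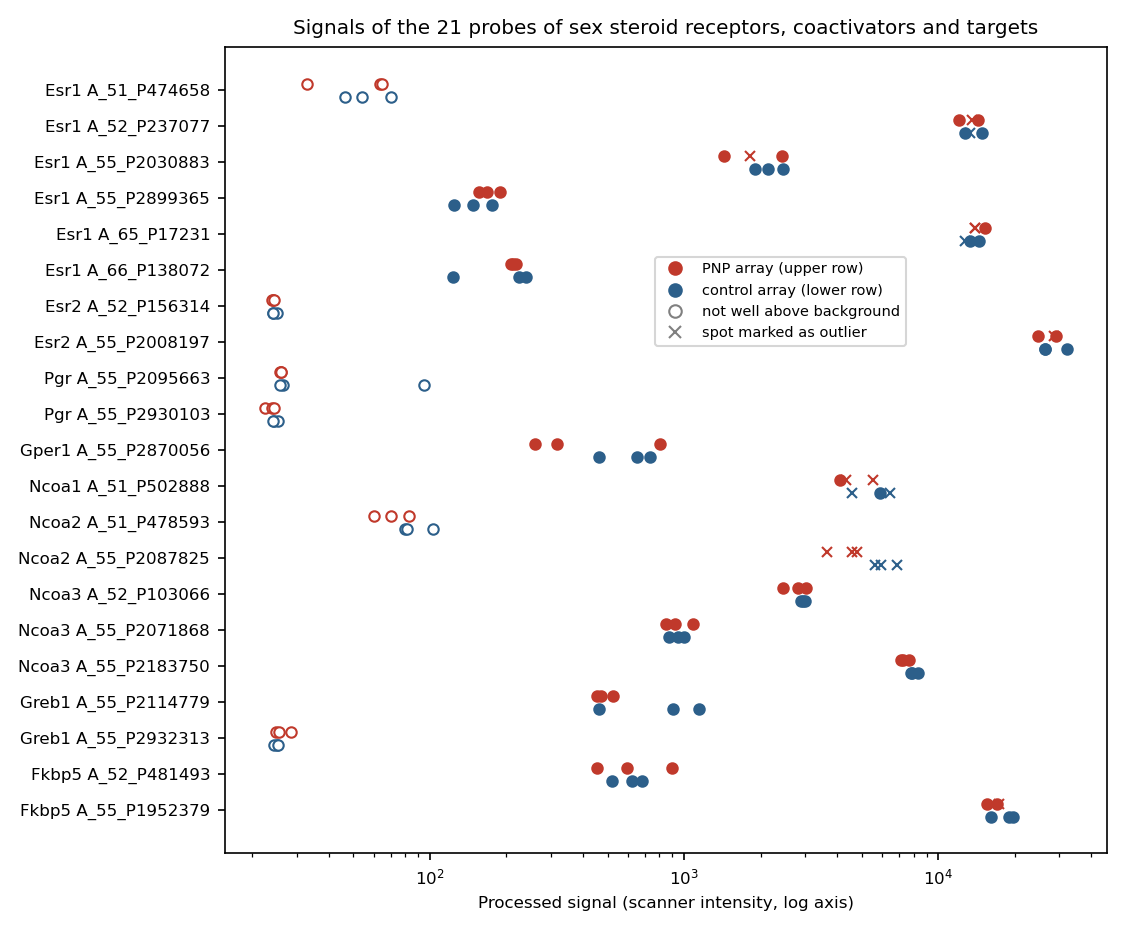
Processed signal (scanner intensity, log axis) of each of the 21 probes on each array, with the 3 PNP arrays above the 3 control arrays in each row; open circles were not well above background and crosses were marked as outlier spots. The 6 probes with open circles stay at 103 or less. On these signals, not yet scaled between arrays, the groups overlap except on 1 probe each of Ncoa2 and Ncoa3, both lower in PNP samples. The PNP arrays were dimmer, with a 75th percentile of 4940 ± 400 against 5570 ± 218 in control samples, and after scaling the Ncoa3 groups overlap. The share of all probes that separate on unscaled signals was not computed.

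Esr1 had 6 probes, 2 for each of 3 transcript records. On A_55_P2899365 the scaled log2 signal was -4.76, -5.09 and -4.73 in PNP samples 1 to 3, against -4.93, -5.49 and -5.29 in control samples 1 to 3. PNP samples 1 and 3 lay above every control sample and PNP sample 2 between control samples 1 and 3. The difference was 0.38 (95% interval -0.01 to 0.76), a fold of 1.30, with an unadjusted p of 0.0544 and an adjusted p of 0.718 in limma, the smallest among the 12. Within odd slide columns it was -5.09 in the PNP sample and a mean of -5.11 in the 2 control samples. Within even columns it was a mean of -4.74 in the 2 PNP samples and -5.49 in the control sample. Each of these contrasts has 1 array on a side, so that column and single arrays cannot be told apart. With odd or even column as a block the difference was 0.38 (-0.04 to 0.80), with an adjusted p of 0.616 in limma. The difference was 0.14 (-0.12 to 0.40) with another background correction, normexp, and 0.27 (-0.12 to 0.67) with quantile normalization. With 1 array left out it ran from 0.25 to 0.53.

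A_66_P138072 read -4.43, -4.60 and -4.56 in PNP samples, against -4.58, -4.54 and -5.55 in control samples. Control sample 3 stood well below the other 5, which lay close together. The fitted difference was 0.36 (-0.22 to 0.94), and it was 0.03 without control sample 3, so that this 1 array set its size.

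A further pair of Esr1 probes also had differences above 0, smaller than their spread or untested. A_52_P237077 read 1.67, 1.20 and 1.44 in PNP samples, the last on a marked spot, against 1.25, 1.27 and 1.36 in control samples, the middle one on a marked spot. The difference over the 4 unmarked values was 0.13 (-0.33 to 0.59). A_65_P17231 had 3 marked spots and was not tested; with marked spots kept it read 1.76, 1.40 and 1.47 in PNP samples, against 1.25, 1.27 and 1.33 in control samples, with PNP samples 2 and 3 and control sample 1 marked. Every PNP value of this probe was above every control value, as for 8.94% of 33335 probes with marked spots kept, and its difference of 0.26 (-0.02 to 0.54) had an adjusted p of 0.784 in limma. With marked spots kept, these 2 probes had a Pearson r of 0.89 over the 6 arrays, which share their scaling.

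Of the other 2 probes of Esr1, 1 had a difference below 0 and 1 was not above background. A_55_P2030883 read -1.31, -1.89 and -1.05 in PNP samples, the first on a marked spot, against -1.12, -1.55 and -1.44 in control samples. PNP sample 3 was the highest of the 6 and PNP sample 2 the lowest, and the difference was -0.10 (-0.70 to 0.50). A_51_P474658 was well above background on no array, with processed signals of 63.6, 32.8 and 64.5 in PNP samples, against 70.5, 54.1 and 46.1 in control samples. The signs of the 4 tested probes were therefore 3 positive and 1 negative.

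Esr2, the other nuclear estrogen receptor, had 1 probe above background. A_55_P2008197 read 2.67, 2.47 and 2.29 in PNP samples, the first on a marked spot, against 2.30, 2.25 and 2.47 in control samples. The ranges overlapped, and the difference over the unmarked values was 0.04 (-0.27 to 0.35), so that a rise past 1.27-fold lay outside that interval. This limit rests on leaving out the marked value, the highest of the 6. With it kept the difference was 0.14 (-0.16 to 0.44). Its second probe, A_52_P156314, stayed between 24.0 and 24.3 in PNP samples and between 24.1 and 24.9 in control samples, at the floor that the scanner software sets. Both probes carried the same accession, so they differed in detection though named for the same transcript record.

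Pgr, the progesterone receptor and itself an estrogen-induced gene in other tissues, was well above background on no array with either of 2 probes. A_55_P2095663 gave processed signals of 25.7, 26.0 and 26.0 in PNP samples, against 26.3, 94.9 and 25.8 in control samples. Only control sample 2 departed from the floor. A_55_P2930103 lay between 22.4 and 24.3 in PNP samples and between 24.1 and 25.2 in control samples, so no fold is given.

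Gper1, the membrane receptor, had 1 probe. It read -3.83, -2.72 and -4.28 in PNP samples, against -2.87, -3.58 and -3.16 in control samples. PNP samples 1 and 3 were the lowest of the 6 and PNP sample 2 the highest, so that the PNP values enclosed all control values. The means were -3.61 ± 0.80 in PNP samples and -3.20 ± 0.36 in control samples (SD, n = 3 each), a difference of -0.41 (-1.25 to 0.44), with an adjusted p of 0.854 in limma. The spread of this probe within groups was at the 99.1 percentile of all tested probes, and its interval was the widest among the 12. The difference was -0.85 without PNP sample 2 (adjusted p = 0.25, limma) and -0.07 without PNP sample 3.

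The Gper1 values also separated by slide column on these 6 arrays. All 3 arrays in odd columns were above all 3 in even columns. The share of all probes that separate this way was not computed. Even columns held 2 PNP samples and 1 control sample, so column and treatment are partly mixed. Within odd columns the PNP sample read -2.72 and the control samples averaged -3.01, while within even columns the PNP samples averaged -4.05 and the control sample read -3.58. With odd or even column as a block the difference was -0.09 (-0.56 to 0.38), with an adjusted p of 0.966 in limma. With slide row as a block it was -0.63 (-1.95 to 0.70), with an adjusted p of 0.664 in limma. Row 1 of the slide held PNP sample 1 and all control samples and row 2 held PNP samples 2 and 3, so that the row-block value sets PNP sample 1 alone against the control samples.

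**Figure D2:**
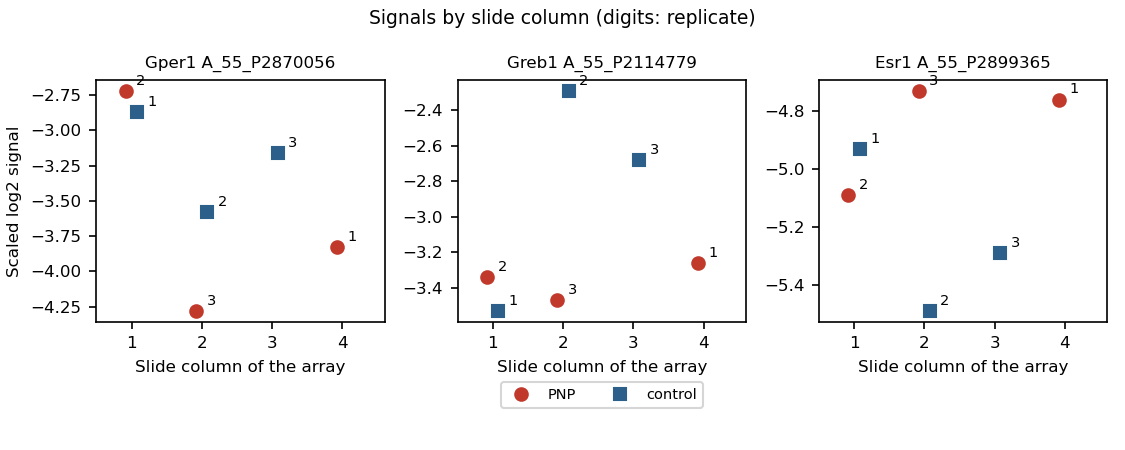
Scaled log2 signal of Gper1 A_55_P2870056, Greb1 A_55_P2114779 and Esr1 A_55_P2899365 against the slide column of each array, with PNP in red circles, control in blue squares and the replicate as a digit. The Gper1 signals in columns 1 and 3 lie above those in columns 2 and 4, and Greb1 is highest on control arrays 2 and 3.

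The p160 coactivators bind ligand-bound nuclear receptors through LXXLL motifs, and Ncoa1 and Ncoa2 are paralogs of Ncoa3. Ncoa3 had 3 probes, all above background and with no marked spot. A_55_P2183750 read 0.67, 0.47 and 0.60 in PNP samples, against 0.54, 0.51 and 0.52 in control samples, with a spread within groups at the 9.3 percentile of all tested probes. Its means were 0.58 ± 0.10 in PNP samples and 0.52 ± 0.02 in control samples (SD, n = 3 each), and its difference was 0.06 (-0.18 to 0.29), so that a change past 1.22-fold upward lay outside the 95% interval.

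A_52_P103066 read -0.68, -1.10 and -0.74 in PNP samples, against -0.89, -0.91 and -0.96 in control samples, with a difference of 0.08 (-0.22 to 0.38). A_55_P2071868 read -2.41, -2.52 and -2.23 in PNP samples, against -2.43, -2.67 and -2.61 in control samples, with a difference of 0.19 (-0.09 to 0.47). In all 3 probes PNP sample 2 was the lowest of the PNP samples. The probes shared their pattern across the 6 arrays, with Pearson r of 0.61, 0.96 and 0.65; these arrays share their labelling and scaling, and the values describe those arrays.

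Ncoa2 gave the only separated groups among the coactivators, in a probe that could not be tested. All 6 spots of A_55_P2087825 were marked as outliers; with marked spots kept it read -0.30, -0.20 and -0.07 in PNP samples, against 0.16, 0.31 and -0.04 in control samples. Every PNP value was below every control value, as for 3.04% of 33335 probes with marked spots kept, though PNP sample 3 and control sample 3 nearly met. The difference was -0.33 (-0.62 to -0.04), a fold of 0.797, with an unadjusted p of 0.0316 and an adjusted p of 0.777 in limma. With marked spots kept, 1 of 15 member probes had an unadjusted p under 0.05, against 6.38% of all probes, and 0 were called, against 0%. The marks rest on spot quality, and their part in this result was not tested. The second Ncoa2 probe, A_51_P478593, was well above background on no array, with processed signals from 60.1 to 82.7 in PNP samples and from 79.9 to 103 in control samples.

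Ncoa1 had 1 probe, A_51_P502888, with 4 of 6 spots marked. With marked spots kept it read -0.05, -0.36 and 0.14 in PNP samples, against -0.23, 0.23 and 0.03 in control samples, with only PNP sample 2 and control sample 3 unmarked. The groups overlapped, and the difference was -0.10 (-0.48 to 0.28), with an adjusted p of 0.921 in limma.

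Greb1, the estrogen-induced gene, had 1 probe above background. A_55_P2114779 read -3.26, -3.34 and -3.47 in PNP samples, against -3.53, -2.29 and -2.68 in control samples. The PNP values lay close together, while control sample 1 was below all of them and control samples 2 and 3 were above. The means were -3.36 ± 0.11 in PNP samples and -2.83 ± 0.63 in control samples (SD, n = 3 each), a difference of -0.52 (-1.15 to 0.11), a fold of 0.697, with an unadjusted p of 0.0949 and an adjusted p of 0.753 in limma. Its spread within groups was at the 96.9 percentile of all tested probes.

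The Greb1 difference was -0.87 without control sample 1 (adjusted p = 0.607, limma) and -0.25 without control sample 2, so that the control arrays set its size. Within odd columns the PNP sample read -3.34 and the control samples averaged -3.11, and within even columns the PNP samples averaged -3.36 and the control sample read -2.29. With odd or even column as a block it was -0.65 (-1.25 to -0.06), with an adjusted p of 0.578 in limma. A_55_P2932313, of another Greb1 transcript, was well above background on no array, with processed signals from 24.7 to 28.5 in PNP samples and from 24.4 to 25.2 in control samples.

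Fkbp5, the steroid-induced co-chaperone, had 2 probes above background. A_52_P481493 read -2.91, -2.55 and -3.47 in PNP samples, against -3.36, -3.16 and -3.09 in control samples. PNP samples 1 and 2 were the highest and PNP sample 3 the lowest of the 6, and the difference was 0.23 (-0.27 to 0.72). It was 0.47 without PNP sample 3 and 0.01 without PNP sample 2. A_55_P1952379 read 1.91, 1.72 and 1.62 in PNP samples, the middle one on a marked spot, against 1.59, 1.77 and 1.77 in control samples, with a difference of 0.06 (-0.27 to 0.39). The probes had a Pearson r of 0.96 over the 5 arrays with an unmarked value in both, and of 0.53 over 6 arrays with the marked value kept.

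**Figure D3:**
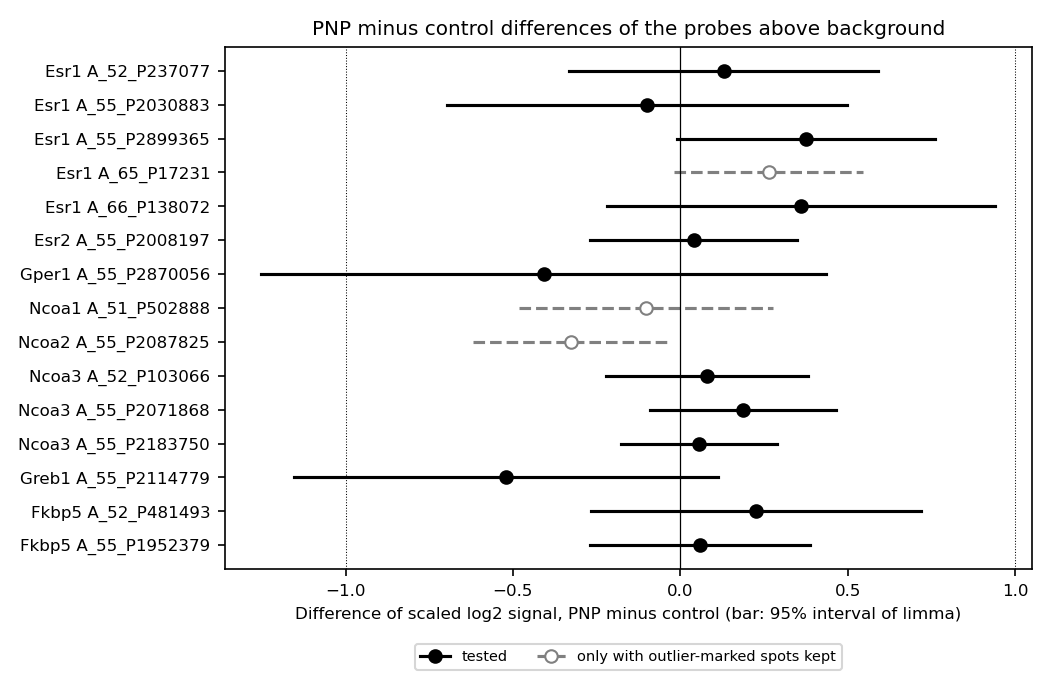
Difference of scaled log2 signal, PNP minus control, with its 95% interval, for the 12 tested probes (filled) and for the 3 that could be fitted only with marked spots kept (open, dashed). The interval crosses 0 in all of the tested probes, and in Ncoa2 it runs from -0.62 to -0.04.

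The intervals say what size of change these arrays could have missed. The median 95% interval reached 0.42 either side, or 1.34-fold. In 10 of the 12 tested probes the whole interval lay within 2-fold, against 97.3% of all tested probes, and in 5 within 1.5-fold. The wide ones were Gper1 and Greb1. Such an interval covers only the spread between these 6 arrays.

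The genes most like a member by Pearson r over the 6 arrays were sought among 14964 named probes with 6 values, for 1 probe each of 5 members; Esr2, Pgr, Ncoa1 and Ncoa2 had no tested probe with 6 values. For Gper1 they were Thg1l (0.9937) and Fnbp1 (0.9922), for Greb1 Afdn (0.9804) and Ttc33 (0.9761), and for Fkbp5 A_52_P481493 Tada2b (0.9948) and Gatad2a (0.9709). For Esr1 A_66_P138072 they were Epb41l2 (0.9935) and Il15ra (0.9928), and for Ncoa3 A_55_P2183750 Asap3 (0.9972) and Plekha6 (0.9970). These are the highest of all searched, over 6 arrays that share their scaling, and describe those arrays. Like the Esr1 probe, Epb41l2 and Il15ra were lowest on control sample 3, at -4.19 and -4.57. Their r without that array was not computed. Between the 5 member probes, r ran from -0.73 for Ncoa3 and Gper1 to 0.50 for Fkbp5 and Gper1.

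The rest of the pathway was read through 93 other genes, each by its brightest tested probe. Of these, 67 were tested, 40 were higher and 27 lower in PNP samples in sign alone, and limma called 0, against 0% of all 13138 tested genes. The 67 include Hsd17b1 and Sult1e1, both among the 27 lower. These passed the filter only through the control arrays, which favours a negative sign. An unadjusted p under 0.05 was reached by 2 of the 67, against 5.62% of all genes. Positive differences made up 59.7% of the 67, against 63.0% of all genes, and their median was 0.03, against 0.04. With median scaling the signs turned to 27 positive and 40 negative, with a median of -0.03, and with quantile normalization they were 32 and 35. All PNP values were above all control values in 8 of the 67, against 9.66% of genes, and below in 2, against 3.75%.

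Of 6 other nuclear receptors, 2 were tested: Nr3c1, the glucocorticoid receptor that also induces Fkbp5, differed by 0.06 and the orphan receptor Esrra by -0.09. Of 6 membrane progesterone receptors 3 were tested, and Paqr6 read -3.52, -3.40 and -3.64 in PNP samples, against -3.73, -3.93 and -4.01 in control samples. Its groups did not overlap, and its difference of 0.37 (0.10 to 0.64) had an unadjusted p of 0.0144 and an adjusted p of 0.704 in limma. Pgrmc2, of the same list, differed by -0.12.

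Of 11 other coactivators 9 were tested, with 6 positive and 3 negative differences (3 and 6 with median scaling). The acetyltransferase Crebbp, which p160 coactivators recruit, differed by 0.19 and the methyltransferase Carm1 by -0.14, with 0.09 in its second probe. Of 8 corepressors, 6 were tested, among them Ncor1 at 0.11 and Tbl1xr1 at -0.08. Chaperones hold steroid receptors ready for ligand, and 10 of the 11 tested, of 12, had a positive difference, with a median of 0.11; with median scaling 8 of the 11 did, with a median of 0.05. Hspa8 read 3.49 and 3.61 in PNP samples 1 and 3, against 3.29, 3.18 and 3.12 in control samples, with PNP sample 2 marked. Its difference of 0.36 had an unadjusted p of 0.02 and an adjusted p of 0.704 in limma, and its second probe differed by 0.10. Ppp5c, a phosphatase that binds HSP90, differed by -0.36 (-0.82 to 0.10). Of 4 pioneer factors 3 were tested, with Gata3 at 0.05 and Tfap2c at 0.02.

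Of 18 estrogen targets 14 were tested, with 6 positive and 8 negative differences and a median of -0.10; the median was -0.16 with median scaling, with 3 positive and 11 negative, and -0.03 with normexp, a model-based background correction. The 2 of smallest p, the protease Ctsd and the chemokine Cxcl12, differed by 0.24 and 0.20, each on 2 control values. Of 12 androgen and glucocorticoid targets, 9 were tested, 5 of them positive; Dusp1, a phosphatase of MAP kinases, differed by 0.20 and Zbtb16 by 0.24, with 0.52 in its second probe. All 4 tested progesterone targets, of 6, had positive differences (3 of the 4 with median scaling), such as 0.15 for Foxo1, whose second probe gave -0.15, and 0.09 for Tnfsf11. No list of targets held a called gene, and limma called 0% of all 13138 tested genes.

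Enzymes that make or inactivate the ligands came last, and 6 of 10 were tested. The 4 that were above background on all 6 arrays had 1 positive and 3 negative differences, with a median of -0.05. Hsd17b1, which makes estradiol from estrone, and the estrogen sulfotransferase Sult1e1 passed the filter only through the control arrays, which favours a negative sign, so they are given by their values. Hsd17b1 was above background on 1 of 3 PNP arrays and on all control arrays and read -5.25, -5.34 and -5.41 in PNP samples, against -4.80, -4.88 and -5.36 in control samples. The ranges overlapped. Sult1e1 was above background on 2 of 3 PNP arrays and on all control arrays and read -5.23, -4.79 and -4.88 in PNP samples, against -4.76, -4.99 and -4.82 in control samples. Srd5a1, which makes dihydrotestosterone, differed by -0.28 (-0.90 to 0.33), and Cyp19a1, the aromatase, was above background on no array.

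**Figure D4:**
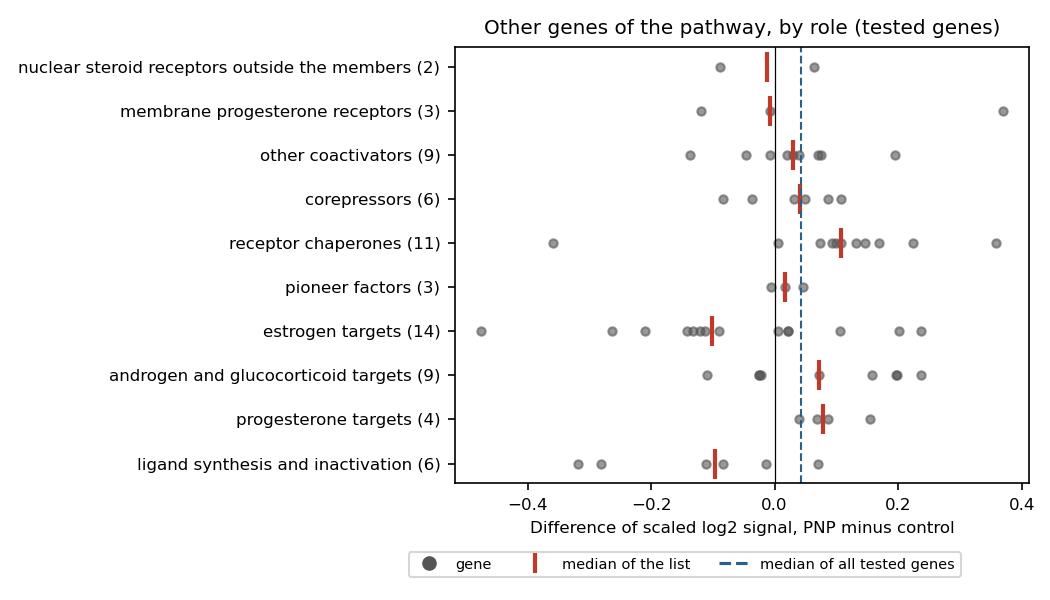
Difference of scaled log2 signal, PNP minus control, of each tested gene outside the members (points), by role list with the number tested, with the list's median (red) and the median of all tested genes (dashed). Most points lie between -0.2 and 0.2, and the medians of the estrogen target and ligand enzyme lists lie at -0.10, the second with Hsd17b1 and Sult1e1 included. Those 2 genes passed the filter only through the control arrays, and over the other 4 ligand enzymes the median is -0.05.

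The members' differences were also computed in 16 other settings of scaling, background, filter, block or left-out array. In all 16 the number of member probes called was 0. Over all tested probes it was 2 with slide column as a block, 1 without control sample 1, 1 without control sample 2 and otherwise 0. The count of 0 is thus not particular to the members. The differences of Gper1 and Greb1 were negative in each of the 16 settings, and those of Esr1 A_55_P2899365 and A_66_P138072 positive. These probes had no marked spot, so the other filters, marked spots kept and the replicate block could not change their differences. Their agreement in sign is in part fixed by that, and every setting draws on the same arrays. The sign of the small differences was less settled: 6 of the 12 probes changed it in at least 1 setting.

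**Figure D5:**
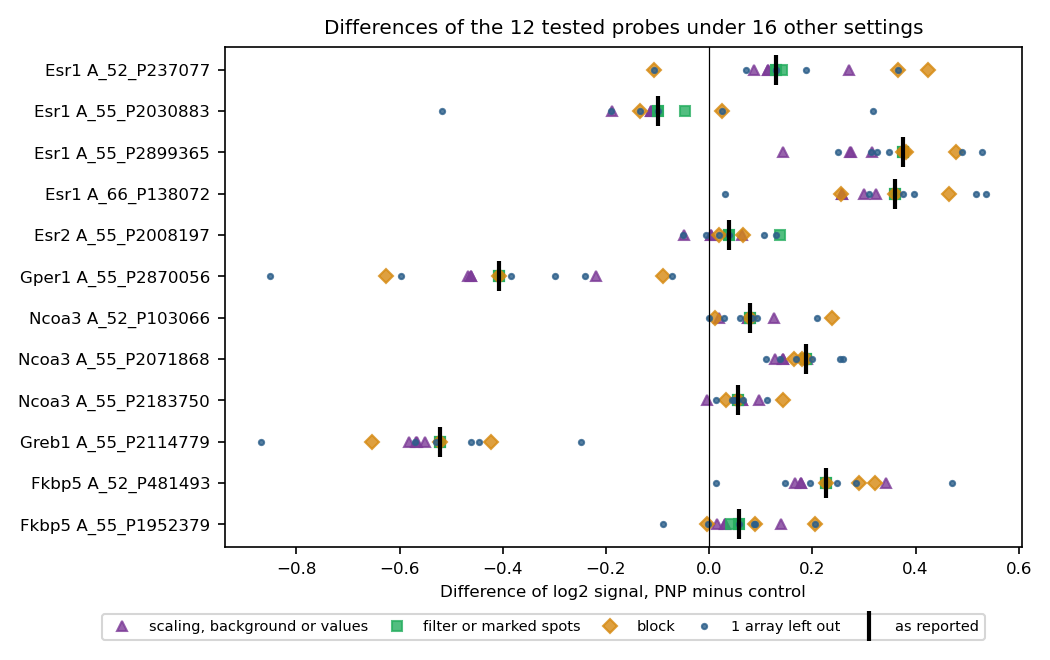
Difference of log2 signal, PNP minus control, of each tested probe as reported (bar) and in 16 other settings, by kind (scaling, background or values; filter or marked spots; block; 1 array left out). Greb1 ranges from -0.87 to -0.25 over left-out arrays, and 6 probes have points on both sides of 0.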

How the data were processed

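Total RNA of 6 TM3 samples was amplified, labelled and hybridised to 1-colour Agilent arrays, per the labels. The labels name Cy3, while the deposited files hold red-channel columns, so the dye is unsettled. Per the file headers, Agilent Feature Extraction 11.5.1.1 made the scanner intensity values, subtracting background and replacing low values by a surrogate; the submitters' processing notes name version 10.7. The authors' deposited table holds log2 values, alike in distribution on every array (median 8.27), made by a method not given in the sources used here. Sorted, the values of each array lay within 0.000955 of those of the first. Their differences nearly equalled those of quantile normalization, such as -0.4617 against -0.4615 for Gper1. These values and quantile normalization are therefore nearly the same check. All arrays lay on 1 slide and 1 scan.

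Tables were read with data.table, version 1.17.8, in R 4.3.3, and fitted with limma 3.58.1. The log2 processed signal minus the 75th percentile over non-control spots was taken. Marked outlier spots were left out. A probe was tested if well above background on all 3 arrays of a group, with at least 2 values per group. Marks removed 6114 of the 33335 probes that passed on background. lmFit and eBayes gave PNP minus control, two-sided, with Benjamini-Hochberg adjustment over 27221 probes at a threshold of 0.05. Probes were named through accessions in a RefSeq list for GRCm38.p6, which named 33767 of 56605. Where a gene of the pathway or marker lists had several tested probes, the brightest stands for it.

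Same-numbered samples did not deviate together (correlations -0.264, -0.181 and -0.027 over 23688 probes), so the fit has no replicate block. Alternatives were another scaling (median, quantile), normexp background on the median signal with offset 50, the authors' values, other filters, marked spots kept, slide column, slide row or replicate as a block, and each array left out. Named genes are all members, per list the 2 with the lowest p, and the 2 of highest r per member. The members and lists were chosen with earlier results of these data known. A further gene that the rule names is not reported here.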

Additional observations from a re-analysis of the deposited data

How the results depend on the processing

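Under 16 alternatives, 0 member probes and 0 other pathway genes passed the threshold, and member adjusted p-values ran from 0.25 to 1. Of all tested probes, 0 to 2 passed it. Of 190 member differences, 177 kept their sign and 13 changed it, and the cause was not tested. Some settings, such as marked spots kept, return the same difference for a probe without marked spots. The 177 therefore include values that could not change. With slide column as a block, Esr1 A_52_P237077 was -0.11 and Fkbp5 A_55_P1952379 was -0.0045, and 2 of all probes were called, none a member. With median scaling, Esr2 A_55_P2008197 was -0.0485 and Ncoa3 A_55_P2183750 was -0.0038. With the replicate block, Esr1 A_55_P2030883 was 0.024 (adjusted p = 0.993, limma), and no call changed.

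Without 1 array, 0 to 1 of all probes were called, none a member; the 1 call came without control replicate 1 and without control replicate 2. The differences then ran from -0.0006 to 0.21 for Ncoa3 A_52_P103066, from -0.11 to 0.37 for Esr1 A_52_P237077, from -0.0888 to 0.20 for Fkbp5 A_55_P1952379, from -0.0506 to 0.13 for Esr2 A_55_P2008197 and from -0.52 to 0.32 for Esr1 A_55_P2030883. The other 7 probes kept their sign.

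The share of all probes higher in PNP samples was 63.4% as reported, 47.0% with median scaling, 53.8% with quantile normalization and 53.6% with the authors' values, so small positive differences have no settled sign. Without the filter, probes near background entered and 6.19% of 50487 probes had an unadjusted p under 0.05, against 6.99% of 27221. The slide row block, which rests on PNP sample 1 against the control samples, gave values for 10 of the 12 probes, with Esr1 A_52_P237077 at 0.37 and Ncoa3 A_52_P103066 at 0.24. The 95% interval of a member probe reached a median of 1.34-fold either side, and the dim probes lie near the surrogate floor.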
